A study of Mus musculus with 16 samples.

Results

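The cyclins, cyclin-dependent kinases (CDKs) and replication licensing genes are the 44 genes of the core cell cycle machinery examined here, taken as the rows of the deposited gene count table that carry their names, out of 55487 genes in that table. They hold the D cyclins with their kinases (5 genes), inhibitors of CDKs (5), retinoblastoma proteins with E2F factors (7), cyclin E with CDK2 and CDC25A (4), licensing and replication fork factors (11), cyclins A and B with CDK1 and CDC25C (5), and mitotic kinases, checkpoint genes and markers of dividing cells (7). Their mRNA was measured by RNA-seq in the urogenital sinus (UGS) epithelium, the epithelial lining of the fetal organ that gives rise to the prostate, of male C57BL/6J mouse fetuses on E16.75 (E, embryonic day). Pregnant dams of this strain had been given by mouth either corn oil vehicle or a single dose of TCDD, a chlorinated dioxin that activates the aryl hydrocarbon receptor (AHR). The sample labels put the dose at 5 µg/kg on E13.5, while the general description of the series gives 1 µg/kg for the dose, and the results text of the study names a later day of exposure. The 4 vehicle and 4 TCDD libraries each came from several epithelia pooled after enzyme digestion and separation from the mesenchyme by hand. A replicate is thus a pool and not an animal, and how the fetuses of a pool were spread over litters is not given in the sources used here.

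Progress through the cell cycle is driven by CDKs, which act only when bound to a cyclin. D cyclins with CDK4 or CDK6, and then cyclin E with CDK2, phosphorylate the retinoblastoma proteins, which releases E2F factors to transcribe genes of DNA replication. Before replication, CDC6 and CDT1 load the MCM2 to MCM7 helicase onto origins, a step called licensing, and cyclins A and B with CDK1 later take the cell into mitosis. The prostate forms as buds of dividing epithelial cells that grow out of the UGS, and TCDD is known to inhibit prostate bud formation in mice.

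Each library was sequenced on 2 lanes. These differed by about as much as random sampling of reads gives, with a chi-square per gene from 0.995 to 1.03, and their mean was treated as 1 sample. The pools held 25917911 to 28146766 counts with vehicle and 22254896 to 26740656 with TCDD over both lanes. TCDD replicate 1 stood apart from the other TCDD pools (chi-square per gene of 32.0 to 49.0, against 13.3 to 20.3 among those 3). Against the vehicle pools its chi-square per gene was 25.7 to 34.8. The authors left this pool out. Results are therefore given first for 7 pools, with TCDD replicates 2 to 4, and then for all 8. The exposure was visible in every TCDD pool, since *Cyp1a1*, the standard target of the AHR, was at 0 to 0.0726 CPM (counts scaled to the library size) in the vehicle pools, 131 CPM in TCDD replicate 1 and 161 to 242 CPM in the other 3.

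The RefSeq promoter windows, from 250 bases before to 50 after a transcription start on GRCm38.p6, cover 36 of the 44 genes in 42 windows. *Aurkb*, *Ccna2*, *Ccnd1*, *Ccnd2*, *Ccne2*, *Cdc25c*, *Mcm4* and *Rb1* have no window in the table. Windows are shown for the 3 genes that passed the test and have one, and for *Ccnb2*, a mitotic cyclin that did not pass it and whose window holds the paired elements of late cell cycle promoters. Capitals mark matches on either strand to the AHR core GCGTG, to the E2F site (TTTCCCGC, TTTCGCGC, TTTGCCGC or TTTGGCGC), to the cell cycle homology region (CHR, TTTGAA) and to the CCAAT box (CCAAT).
*Ccnd3*, upstream start, chr17:47504801-47505100, plus strand: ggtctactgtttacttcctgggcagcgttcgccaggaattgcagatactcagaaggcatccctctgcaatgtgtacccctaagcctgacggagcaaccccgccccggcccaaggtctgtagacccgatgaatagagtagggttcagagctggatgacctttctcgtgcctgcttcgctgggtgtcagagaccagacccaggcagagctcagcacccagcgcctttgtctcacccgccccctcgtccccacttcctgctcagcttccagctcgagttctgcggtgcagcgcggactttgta
*Ccnd3*, downstream start, chr17:47593217-47593516, plus strand: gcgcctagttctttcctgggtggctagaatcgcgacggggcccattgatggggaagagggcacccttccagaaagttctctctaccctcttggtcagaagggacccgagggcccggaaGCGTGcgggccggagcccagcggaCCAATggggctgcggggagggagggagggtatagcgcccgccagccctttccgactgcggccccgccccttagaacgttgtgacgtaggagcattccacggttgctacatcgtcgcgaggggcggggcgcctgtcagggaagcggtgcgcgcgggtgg
*Cdkn1b*, chr6:134920151-134920450, plus strand: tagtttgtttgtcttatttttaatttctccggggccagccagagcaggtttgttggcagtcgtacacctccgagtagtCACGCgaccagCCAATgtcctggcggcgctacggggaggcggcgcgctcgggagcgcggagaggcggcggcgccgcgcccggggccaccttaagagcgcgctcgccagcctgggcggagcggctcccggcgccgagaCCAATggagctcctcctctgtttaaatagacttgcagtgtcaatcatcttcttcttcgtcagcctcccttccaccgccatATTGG
*Mcm6*, chr1:128359656-128359955, minus strand: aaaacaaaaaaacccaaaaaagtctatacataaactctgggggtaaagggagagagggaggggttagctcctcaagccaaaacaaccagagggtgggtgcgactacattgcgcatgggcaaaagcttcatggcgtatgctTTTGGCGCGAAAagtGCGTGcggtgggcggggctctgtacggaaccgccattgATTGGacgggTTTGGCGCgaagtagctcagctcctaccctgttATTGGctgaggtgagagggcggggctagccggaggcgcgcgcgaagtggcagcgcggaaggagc
*Ccnb2*, chr9:70421505-70421804, minus strand: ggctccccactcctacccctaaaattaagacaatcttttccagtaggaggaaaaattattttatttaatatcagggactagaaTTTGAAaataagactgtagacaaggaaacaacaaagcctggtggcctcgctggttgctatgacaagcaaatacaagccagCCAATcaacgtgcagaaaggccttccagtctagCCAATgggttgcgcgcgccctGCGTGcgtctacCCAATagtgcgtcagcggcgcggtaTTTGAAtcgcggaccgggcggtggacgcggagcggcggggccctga
The upstream *Ccnd3* window holds none of these letters, and the downstream one holds an AHR core and a CCAAT box. The *Cdkn1b* window has an AHR core on the reverse strand and 3 CCAAT boxes. The *Mcm6* window has 3 E2F matches, of which 2 overlap on opposite strands in the first run of capitals, besides an AHR core and 2 CCAAT boxes. The *Ccnb2* window has 2 CHR elements, 3 CCAAT boxes and an AHR core.

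Across the 42 windows, the E2F site was found in 14, against 2.27% of all 32841 windows of the same length, and the CHR in 13, against 17.9% of all. The CCAAT box was found in 30, against 37.4% of all, and the AHR core in 20, against 32.4%. The E2F site was spread over 6 of the 11 windows of licensing and fork genes and 4 of the 8 of retinoblastoma proteins and E2F factors. Of the 6 windows of mitotic genes, 5 held the CHR and all 6 the CCAAT box, while the 4 windows of D cyclins and their kinases held neither an E2F site nor a CHR. These matches describe letters in the windows and are no evidence that a factor binds there.

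In TCDD replicates 2 to 4 the D cyclins were lower and the CDK inhibitor *Cdkn1b* was higher than with vehicle. Of the 23 genes of replication and mitosis 22 did not pass the test. Here a gene rose or fell where its p in the quasi-likelihood F-test of edgeR, adjusted over all 14233 tested genes (Benjamini-Hochberg), was 0.05 or less. *Cdkn2a* had too few counts to be tested, and of the other 43 genes 1 rose (*Cdkn1b*), 4 fell (*Ccnd1*, *Ccnd2*, *Ccnd3* and *Mcm6*) and 38 did not pass. That is 11.6% of the tested cell cycle genes, against 23.0% of all tested genes, of which 11.9% rose and 11.2% fell, so that calls were no more common here than elsewhere. Over all 8 pools *Cdkn1b* rose and *Ccnd1* and *Ccnd2* fell, 6.98% of the 43 against 13.4% of the 14051 genes tested there (7.41% higher and 6.00% lower). No cell cycle gene passed edgeR's TREAT test for a change of more than 1.5-fold, a test that 4.03% of all genes passed (2.59% higher and 1.44% lower), and 0 had an unadjusted TREAT p under 0.05. TREAT gave 0 over 8 pools too, where 1.37% of all genes passed. For a change of any size, DESeq2 called 1 gene higher, against 10.2% of all genes, and 6 lower, against 10.1%. The pools of the groups did not overlap for 6 genes, the 5 that passed and *Cdt1*, against 31.4% of all genes (3 genes and 18.4% over 8 pools).

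**Figure D1:**
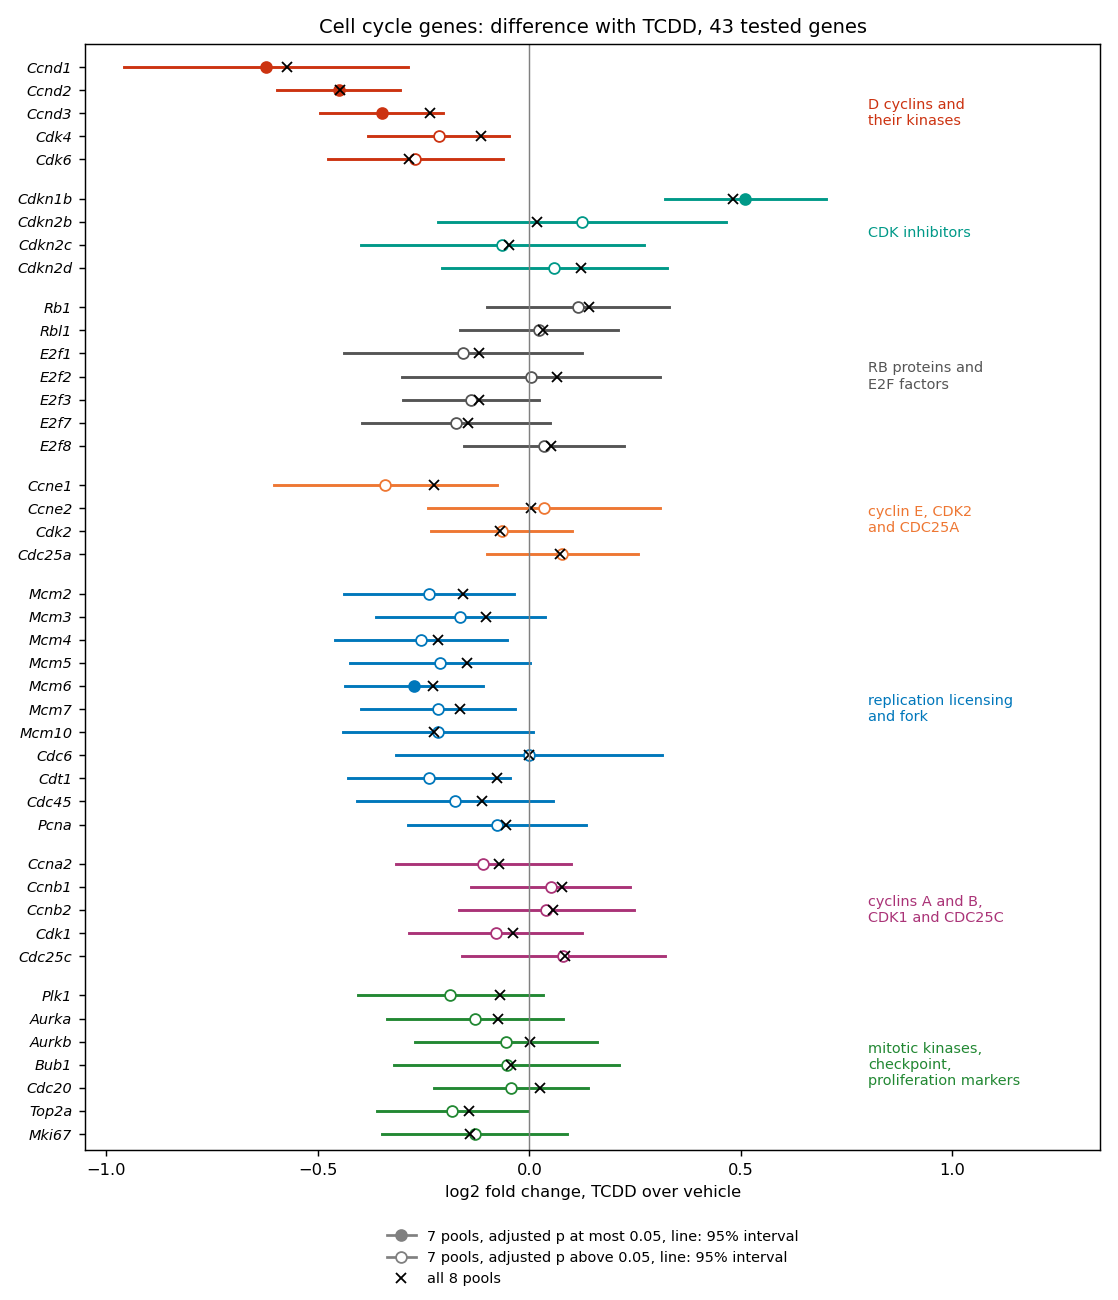
Log2 fold change of TCDD over vehicle (x axis) for each of the 43 tested cell cycle genes (y axis, grouped by role). Circles and lines give the estimate over 7 pools and its 95% interval, filled where the adjusted p was at most 0.05, and crosses give the estimate over all 8 pools. The D cyclins lie farthest to the left, from −0.62 to −0.35, *Cdkn1b* lies farthest to the right at 0.51, and all 11 licensing and fork genes lie below 0.

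*Ccnd2* encodes cyclin D2, had the highest mRNA level of the D cyclins, and fell in every TCDD pool. On GRCm38 the gene lies at chr6:127125162-127152193 on the minus strand. Its level was 979, 1025, 925 and 1010.2 CPM in vehicle replicates 1 to 4 and 710.2, 695 and 756 CPM in TCDD replicates 2 to 4, with 725 CPM in TCDD replicate 1. The highest TCDD pool was thus well below the lowest vehicle pool, also with TCDD replicate 1. The log2 fold change was −0.45 (SE 0.0672, adjusted p = 2.5e-04), or 0.732 times the vehicle level, and −0.45 over 8 pools (SE 0.0592, adjusted p = 7.0e-04). In RNA from bulk epithelium, fewer cells with a transcript and less of the transcript per cell cannot be told apart.

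*Ccnd1* encodes cyclin D1, whose gene is a target of several growth factor pathways, and it had the largest fold change of the 43 genes over 7 pools, though not without vehicle replicate 4. It lies at chr7:144929931-144939925 on the minus strand. Vehicle replicates 1 to 4 were at 79.5, 84.0, 88.1 and 123 CPM and TCDD replicates 2 to 4 at 54.7, 68.5 and 59.1 CPM, with 69.2 CPM in TCDD replicate 1. All TCDD pools were below all vehicle pools, and vehicle replicate 4 was far above the other 3 vehicle pools. On the log2 scale the fold change was −0.62 (SE 0.150, adjusted p = 0.0136) and over 8 pools −0.57 (SE 0.138, adjusted p = 0.0209). Without vehicle replicate 4 it was −0.47 (SE 0.0925, adjusted p = 0.0029), smaller in size than the 0.55 of the inhibitor gene *Cdkn1b* in that comparison. The call was lost without TCDD replicate 2 (−0.55, adjusted p = 0.0647) and without TCDD replicate 4 (−0.61, adjusted p = 0.0749).

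*Ccnd3*, which encodes cyclin D3 (chr17:47505051-47599691, plus strand), fell over 7 pools and not over 8. The vehicle pools were close together, at 287, 273, 292 and 282 CPM, and TCDD replicates 2 to 4 were at 232, 226 and 209.97 CPM. TCDD replicate 1, at 295 CPM, was higher than each of the 4 vehicle pools. On the log2 scale the fold change was −0.35 (SE 0.0680, adjusted p = 0.0019) over 7 pools and −0.23 (SE 0.0951, adjusted p = 0.129) over 8.

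The kinases that pair with D cyclins did not pass the test. *Cdk4*, the gene of CDK4, was at 551, 531, 562 and 500.1 CPM with vehicle, 442, 514 and 429 CPM in TCDD replicates 2 to 4 and 592 CPM in TCDD replicate 1. TCDD replicate 3 lay within the vehicle range and TCDD replicate 1 above it, and the log2 fold change was −0.21 (SE 0.0777, adjusted p = 0.0619), or −0.11 (adjusted p = 0.491) over 8 pools. *Cdk6*, the gene of CDK6, was at 80.5, 93.6, 75.3 and 94.1 CPM with vehicle, 66.2, 67.6 and 79.9 CPM in TCDD replicates 2 to 4 and 67.8 CPM in TCDD replicate 1. Only TCDD replicate 4 reached the vehicle range, and the log2 fold change was −0.27 (SE 0.0968, adjusted p = 0.0604), or −0.29 (adjusted p = 0.0601) over 8 pools. Summed over the 5 genes, the level was 1942 to 2009 CPM with vehicle, 1505 to 1571 CPM over TCDD replicates 2 to 4 and 1749.6 CPM in the removed pool.

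**Figure D2:**
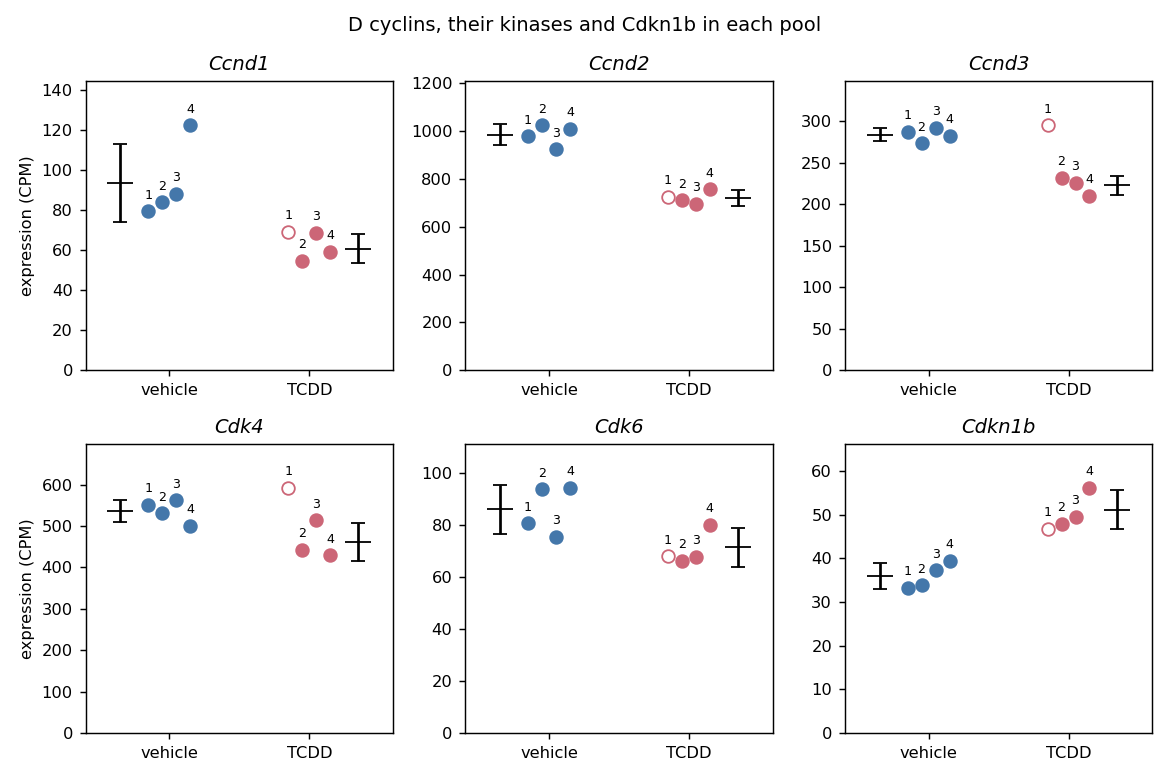
Expression in CPM (y axis, starting at 0) of the 3 D cyclins, their kinases *Cdk4* and *Cdk6* and the inhibitor *Cdkn1b* in each pool. Points are numbered by replicate, the open point is TCDD replicate 1, and bars give the mean and SD of the 4 vehicle pools and of TCDD replicates 2 to 4. All 4 TCDD pools are below the vehicle pools for *Ccnd1* and *Ccnd2* and above them for *Cdkn1b*, while TCDD replicate 1 sits at 295 CPM for *Ccnd3* and 592 CPM for *Cdk4*, above every vehicle pool.

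Divided by exon length, the vehicle levels in CPM per kb were highest for *Cdk4* (165 ± 8.36, SD, n = 4 pools), *Ccnd2* (105 ± 4.73) and *Pcna* (75.2 ± 8.29). Among the D cyclins the order per kb was *Ccnd2*, *Ccnd3* (32.3 ± 0.919) and *Ccnd1* (19.9 ± 4.17), each apart from the next by more than the SDs. *Cdkn2a* was lowest of the 44 genes, at 0.0459 CPM per kb.

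*Cdkn1b* encodes p27, an inhibitor that binds cyclin E with CDK2 and is high in cells that have left the cycle, and it rose in every TCDD pool. The gene lies at chr6:134920401-134925513 on the plus strand, and its promoter is printed above. Vehicle replicates 1 to 4 were at 33.2, 33.8, 37.3 and 39.4 CPM, TCDD replicates 2 to 4 at 47.9, 49.4 and 56.1 CPM and TCDD replicate 1 at 46.8 CPM. The groups did not overlap with or without TCDD replicate 1. The log2 fold change was 0.51 (SE 0.0884, adjusted p = 8.1e-04), or 1.42 times the vehicle level, and over 8 pools 0.48 (SE 0.0851, adjusted p = 0.0035).

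The INK4 inhibitors, which bind CDK4 and CDK6, did not pass the test. *Cdkn2a*, the gene of p16 and p19ARF, had 0 to 4 counts in a pool over both lanes, at most 0.140 CPM. *Cdkn2b* (p15) was at 7.55 to 10.5 CPM with vehicle and 8.11 to 11.3 CPM in TCDD replicates 2 to 4, *Cdkn2c* (p18) at 4.88 to 6.07 and 5.21 to 5.56 CPM, and *Cdkn2d* (p19) at 14.4 to 17.7 and 15.1 to 20.2 CPM. Each of the 3 had TCDD pools inside the vehicle range, and their log2 fold changes were 0.13, −0.06 and 0.06 with adjusted p of 0.628, 0.815 and 0.781.

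None of the 7 retinoblastoma and E2F genes passed the quasi-likelihood test, DESeq2 passed none, and 0 had an unadjusted p under 0.05. *Rb1* encodes the retinoblastoma protein, the main target of cyclin D kinases, and was at 16.1 to 18.8 CPM with vehicle and 17.6 to 19.8 CPM in TCDD replicates 2 to 4 (log2 fold change 0.12, SE 0.1001, adjusted p = 0.455). *Rbl1*, the gene of the related p107, was at 54.5 to 66.1 CPM with vehicle and 59.3 to 69.2 CPM in TCDD replicates 2 to 4. The ranges of the groups overlapped in both. The activator genes *E2f1*, *E2f2* and *E2f3* had log2 fold changes of −0.16, 0.0036 and −0.14, and the repressor genes *E2f7* and *E2f8* of −0.17 and 0.03. Adjusted p for the 5 E2F genes ran from 0.216 to 0.989. *E2f1* was at 16.1 to 20.03 CPM with vehicle and at 16.6, 19.7 and 13.5 CPM in TCDD replicates 2 to 4, of which 1 lay below the vehicle range.

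*Ccne1*, the gene of cyclin E1 and itself a target of E2F factors, had the lowest estimate of the genes that did not pass. Vehicle replicates 1 to 4 were at 31.5, 33.3, 31.3 and 23.3 CPM, TCDD replicates 2 to 4 at 22.9, 26.3 and 21.6 CPM and TCDD replicate 1 at 31.3 CPM. Vehicle replicate 4 lay among the TCDD pools and TCDD replicate 1 among the vehicle pools. Its log2 fold change was −0.34 (SE 0.123, adjusted p = 0.0616), and without vehicle replicate 4 it was −0.45 (SE 0.0986) and passed (adjusted p = 0.0058). *Ccne2*, the gene of cyclin E2, stood at 14.3 to 18.8 CPM with vehicle and 14.7 to 20.2 CPM with TCDD. *Cdk2* stood at 68.7 to 78.9 and 64.1 to 72.9 CPM, and *Cdc25a*, the gene of a phosphatase that activates CDK2, at 59.2 to 69.1 and 62.4 to 74.6 CPM. These 3 had log2 fold changes of 0.03, −0.07 and 0.08, with adjusted p of 0.555 to 0.880. DESeq2 called *Ccne1* lower (adjusted p = 0.0498) and none of the other 3.

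Of the 11 licensing and fork genes, *Mcm6* fell and the others did not pass, while all 11 estimates were below 0, from −0.27 to −0.0016 with a median of −0.22 (median of all tested genes −0.0024). *Mcm6* encodes a subunit of the MCM2 to MCM7 helicase and lies at chr1:128331590-128359664 on the minus strand, with the promoter printed above. Its vehicle pools were at 218, 227, 206 and 193 CPM, TCDD replicates 2 to 4 at 180.3, 179.8 and 164 CPM and TCDD replicate 1 at 196 CPM. TCDD replicates 2 to 4 were below all vehicle pools and TCDD replicate 1 was above vehicle replicate 4. The log2 fold change was −0.27 (SE 0.0763, adjusted p = 0.0185), or 0.828 times the vehicle level, and over 8 pools −0.23 (SE 0.0743, adjusted p = 0.0642). The call was also lost without vehicle replicate 2 (adjusted p = 0.0601) and without TCDD replicate 4 (adjusted p = 0.0891).

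The other subunits of the helicase did not pass the test, and their estimates were below 0 like that of *Mcm6*. *Mcm2* was at 151, 155, 169 and 129.7 CPM with vehicle and 139.6, 130.03 and 115 CPM in TCDD replicates 2 to 4. *Mcm4* was at 171, 175, 164 and 133 CPM with vehicle and 144, 134 and 126 CPM in TCDD replicates 2 to 4. In both, vehicle replicate 4 lay at or below the level of a TCDD pool and the other 3 vehicle pools lay above every one of these TCDD pools. The log2 fold changes of *Mcm2*, *Mcm3*, *Mcm4*, *Mcm5* and *Mcm7* were −0.24, −0.16, −0.26, −0.21 and −0.22, with SEs of 0.0851 to 0.0989 and adjusted p of 0.0671 to 0.238. Over 8 pools they were −0.16, −0.10, −0.22, −0.15 and −0.16, with adjusted p of 0.148 to 0.531. *Mcm7* counts come from exons that overlap the microRNA genes *Mir25* and *Mir93* over 172 bases on the same strand.

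*Cdt1*, whose protein loads the helicase, had pools that did not overlap, at 40.1, 41.2, 43.9 and 38.2 CPM with vehicle and 37.4, 35.9 and 30.8 CPM in TCDD replicates 2 to 4, and yet its log2 fold change of −0.24 (SE 0.0892, adjusted p = 0.0735) was not past the threshold. TCDD replicate 1, at 50.8 CPM, was above all other pools, and over 8 pools the log2 fold change was −0.08 (adjusted p = 0.757). *Cdc6*, the partner of CDT1 in loading, was at 32.8, 29.6, 35.5 and 21.2 CPM with vehicle and 28.6, 30.6 and 29.95 CPM in TCDD replicates 2 to 4. Its vehicle pools spread much wider than its TCDD pools, and its log2 fold change was −0.0016 (SE 0.144). *Mcm10* and *Cdc45*, whose proteins act when the helicase is switched on, had log2 fold changes of −0.22 and −0.18 (adjusted p = 0.161 and 0.276). *Pcna*, the gene of the sliding clamp of DNA polymerases, was at 154 to 201 CPM with vehicle and 159 to 194 CPM in TCDD replicates 2 to 4 (log2 fold change −0.08, adjusted p = 0.633).

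The cyclins and kinase of mitotic entry did not pass the test in either direction. *Ccnb1*, the gene of cyclin B1, was at 91.6, 96.6, 90.0 and 81.0 CPM with vehicle and 81.4, 101 and 96.6 CPM in TCDD replicates 2 to 4, and *Cdk1*, its kinase, was at 111, 118, 119.6 and 93.6 CPM and at 93.4, 112 and 109 CPM. In both genes the lowest TCDD pool was within 1 CPM of the lowest vehicle pool. The log2 fold changes were 0.05 (SE 0.0880, 95% interval −0.14 to 0.24) and −0.08 (SE 0.0950, 95% interval −0.28 to 0.12). *Ccna2* (cyclin A2), *Ccnb2* (cyclin B2, promoter printed above) and *Cdc25c*, the gene of a phosphatase that activates CDK1, had log2 fold changes of −0.11, 0.04 and 0.08. Adjusted p for the 5 genes ran from 0.467 to 0.811, 0 had an unadjusted p under 0.05, and DESeq2 called none.

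The markers of dividing cells did not pass the test either, and the 7 genes of this group had estimates from −0.19 to −0.04 over 7 pools. Over 8 pools *Aurkb* (5.2e-04) and *Cdc20* (0.03) were above 0, and the median went from −0.13 to −0.07. *Mki67*, the gene of Ki-67, a protein found in the nuclei of cycling cells, was at 376, 383, 383 and 303 CPM with vehicle and 368, 285 and 338 CPM in TCDD replicates 2 to 4, with 319 CPM in TCDD replicate 1. *Top2a*, the gene of a topoisomerase that separates replicated chromosomes, was at 326, 334, 325 and 266 CPM with vehicle and 276, 267 and 284 CPM in TCDD replicates 2 to 4, with 305 CPM in TCDD replicate 1. In both genes vehicle replicate 4 lay with the TCDD pools, away from the other vehicle pools. The log2 fold change was −0.13 (SE 0.101, adjusted p = 0.410) for *Mki67* and −0.18 (SE 0.0829, adjusted p = 0.137) for *Top2a*, whose exons overlap the annotated gene *Gm23451* over 122 bases. The kinase genes *Plk1*, *Aurka* and *Aurkb* and the checkpoint genes *Bub1* and *Cdc20* had log2 fold changes of −0.19, −0.13, −0.06, −0.05 and −0.04, with adjusted p of 0.219 to 0.804. Of the 7 genes, 1 (*Top2a*) had an unadjusted p under 0.05, and DESeq2 called none.

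How closely the pools bound a difference can be read from the intervals. Among the 38 tested genes that did not pass, the 95% interval lay within a 1.5-fold change in either direction for 37, the exception being *Ccne1*, whose interval ran from −0.60 to −0.08 on the log2 scale. The SEs of the 43 genes ran from 0.0672 to 0.159. In all, 31 of the 43 estimates were below 0 and 12 above, and the median was −0.13 over 7 pools and −0.07 over 8, where the medians of all tested genes were −0.0024 and 0.0026. At an unadjusted p under 0.05 in the quasi-likelihood test, 12 of the 43 genes were lower, a larger share than the 17.2% of all tested genes. Only 1 of the 43 was higher, a smaller share than the 17.1% of all.

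Vehicle replicate 4 stood low in most of the cell cycle genes, the replication and mitosis genes included. It was the lowest of the 4 vehicle pools for 34 of the 43 genes, and for all 23 genes of licensing, cyclins A and B with CDK1, and mitosis. In the further cell cycle lists described below it was the lowest vehicle pool for 102 of 139 tested genes. Its median level over the 11 licensing and fork genes was −0.25 on the log2 scale relative to the mean of the vehicle pools, against 0.05 to 0.06 in the other vehicle pools, and TCDD replicates 2 to 4 were at −0.35 to −0.15. For the D cyclins and their kinases, in contrast, it was the lowest vehicle pool for 1 gene (*Cdk4*) and the highest for 2. Leaving out the vehicle pool that is lowest for a gene raises the vehicle mean of that gene in any case. Calls gained that way are thus no separate support for a fall. Without vehicle replicate 4, 13 genes fell and not 4, where the share of all tested genes that fell was 11.2% in both comparisons, with *Cdk4*, *Ccne1*, *Mcm2*, *Mcm3*, *Mcm4*, *Mcm5*, *Mcm7*, *Mcm10* and *Top2a* added to the 4. With TCDD replicate 1 also put back, 4 genes fell (*Ccnd1*, *Ccnd2*, *Mcm4* and *Mcm10*), against 4.36% of all genes. Without TCDD replicate 3, 7 genes fell, against 9.41% of all. Vehicle replicate 4 held 27233515 counts, where the other vehicle pools held 25917911 to 28146766, and its summed mesenchyme markers were at 169 CPM, where the other vehicle pools were at 138 to 198 CPM; their part in these counts was not tested.

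**Figure D3:**
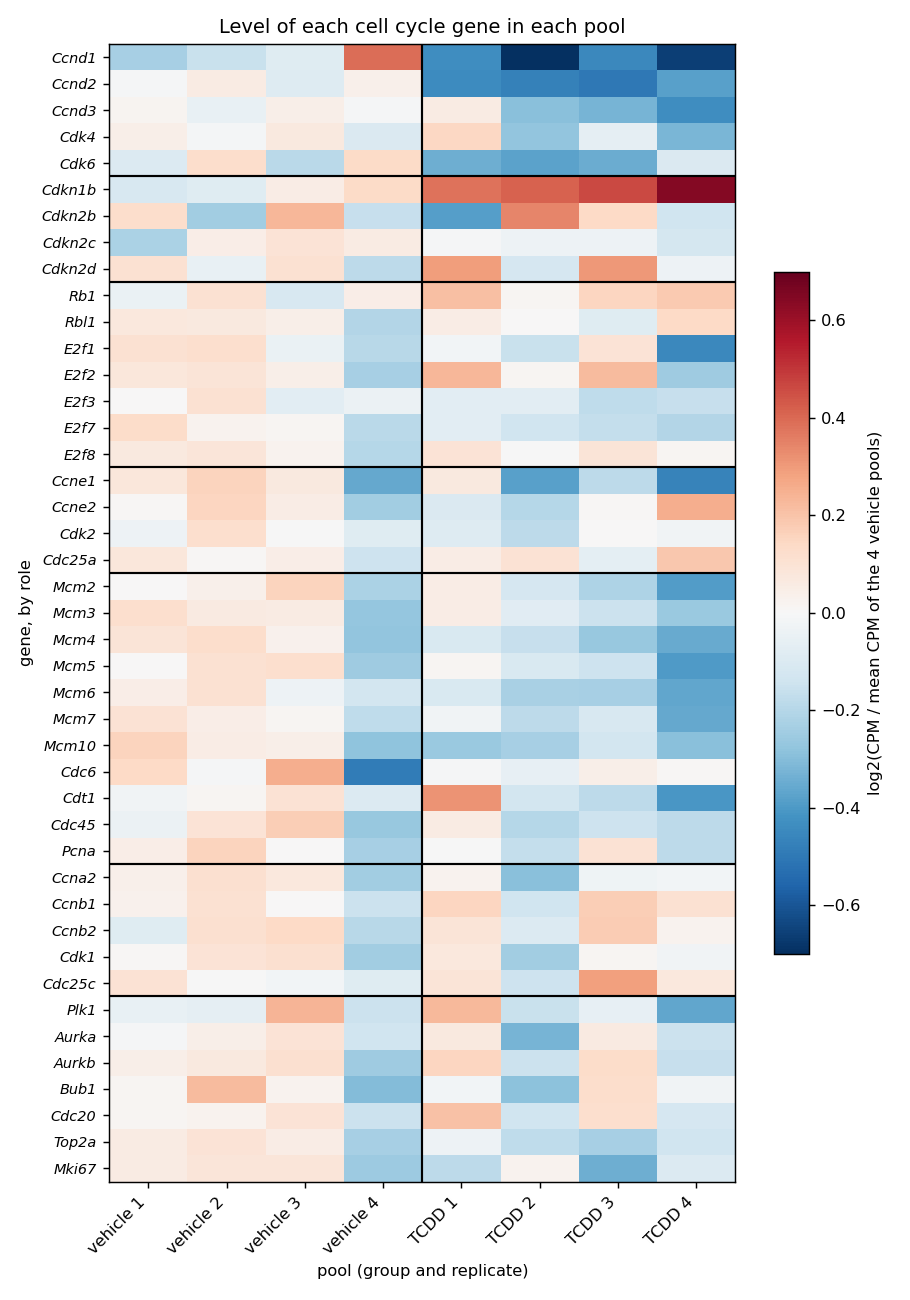
Level of each of the 43 tested cell cycle genes (rows, grouped by role) in each of the 8 pools (columns), as log2 of the CPM over the mean CPM of the 4 vehicle pools, on a colour scale from blue (below that mean) to red (above). Vehicle replicate 4 is below the mean in all 23 genes of licensing, cyclins A and B with CDK1, and mitosis, and TCDD replicate 1 is below it in 19 of the 43 genes.

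TCDD replicate 1, the pool that the authors removed, stood with the other TCDD pools for *Ccnd1*, *Ccnd2*, *Cdk6* and *Cdkn1b*. For most of the rest it lay within the range of the vehicle pools or above it. It lay within the range of the vehicle pools for 27 of the 43 genes, within that of the other TCDD pools for 16, above all 7 other pools for 8 and below all of them for 1. The 2 ranges overlap for some genes, which are counted in both, and the vehicle range spans 4 pools against 3. Among the TCDD pools it was the highest for 25 genes. Its median over the 43 genes, relative to the vehicle mean, was 0.05 on the log2 scale, against −0.15, −0.06 and −0.15 in TCDD replicates 2, 3 and 4.

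Among markers of other cells, mainly those of mesenchyme differed between the groups. Of all tested genes 11.2% fell over 7 pools and 6.00% over 8. Of 12 mesenchyme markers 9 could be tested and 7 fell over 7 pools, 2 over 8. Their summed level was 138 to 198 CPM with vehicle, 79.3 to 83.9 CPM in TCDD replicates 2 to 4 and 159 CPM in TCDD replicate 1, which lay within the vehicle range. *Dcn* was the most abundant of them, at 84.6 to 96.5 CPM with vehicle and 51.6 to 56.1 CPM in TCDD replicates 2 to 4, while *Twist2* was at 0 CPM in vehicle replicate 3 and TCDD replicates 2 to 4. Of 8 epithelial markers *Krt8* and *Krt18* rose and *Shh* fell, and their summed level was 6587 to 6969 CPM with vehicle and 7014 to 7863 CPM in the 4 TCDD pools. Muscle, endothelial and erythroid markers had too few counts to be tested, with a summed level of at most 7.55 CPM in a pool. Leukocyte markers summed to 8.53 to 17.0 CPM with vehicle and 11.8 to 20.2 CPM with TCDD, where *Cd68* rose, and neuronal and glial markers to 10.7 to 12.2 and 8.18 to 12.9 CPM, where *Th* fell over 7 pools and not over 8 (adjusted p = 0.155). The part of these cells in the differences of the cell cycle genes was not tested.

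Beyond the 44 genes, 5 further lists held 141 genes of the cell cycle, of which 139 were tested. Of these 2 rose and 9 fell, where 11.9% of all tested genes rose and 11.2% fell. Over 8 pools 3 rose and 1 fell, where 7.41% of all tested genes rose and 6.00% fell. Across the 139 genes the median log2 fold change over 7 pools was −0.07, with 101 estimates below 0. The changes among further cyclins and CDK regulators were the most varied, with 2 genes that rose and 3 that fell of 34 tested. *Cdkn1a* encodes p21, a CDK inhibitor related to p27, and rose as *Cdkn1b* did. It was at 63.2, 62.1, 69.3 and 76.9 CPM with vehicle, 111, 105 and 99.9 CPM in TCDD replicates 2 to 4 and 98.4 CPM in TCDD replicate 1. The groups did not overlap, and the log2 fold change was 0.63 (SE 0.0839, adjusted p = 9.7e-05), or 0.61 (adjusted p = 7.2e-04) over 8 pools.

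*Cdkn1c* encodes p57, the remaining inhibitor of this family, and went the other way over 7 pools. It was at 271, 233, 289 and 265 CPM with vehicle and 165, 180.1 and 158 CPM in TCDD replicates 2 to 4. TCDD replicate 1, at 301 CPM, was above every vehicle pool, as it was for *Ccnd3*. The log2 fold change was −0.66 (SE 0.0840, adjusted p = 7.2e-05) over 7 pools and −0.39 (SE 0.197, adjusted p = 0.236) over 8. *Ccnj*, the gene of cyclin J, fell over both sets of pools (log2 fold change −0.41 in each, adjusted p = 0.0131 and 0.0162). *Cks1b*, the gene of a small subunit that p27 needs to be marked for breakdown, fell over 7 pools (−0.30, adjusted p = 0.0273) and not over 8 (−0.20, adjusted p = 0.223). *Ccno*, a cyclin gene of multiciliated cells, was among the 2 that rose and was near the limit of detection, at 0.145 to 0.281 CPM with vehicle and 1.29 to 2.13 CPM in the 4 TCDD pools. Its mean count over the lanes was 2 to 4 in the vehicle pools, under the minimum of 10 that the filter asks for, so that it was tested only because it is high with TCDD, and its call is not read further. It was the only one of the 139 tested genes of these lists, and there were 0 among the 43 of the main set, to reach that minimum in 1 group alone. *Cdk19*, a kinase gene of the Mediator complex, passed over 8 pools alone (0.24, adjusted p = 0.0337).

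In the lists nearest to the licensing genes, few genes passed and most estimates were small and below 0. Of 27 genes of replication polymerases, clamp loaders and nucleotide supply, *Pole*, *Pold2* and *Uhrf1* fell (−0.30, −0.29 and −0.23, adjusted p of 0.0351 to 0.0428) and 25 estimates were below 0. The first 2 encode subunits of the leading and lagging strand polymerases, and UHRF1 brings the maintenance methyltransferase to new DNA. Of 22 genes of origin recognition and firing none passed the quasi-likelihood test or DESeq2 and 2 were lower at an unadjusted p under 0.05. Of 42 genes of spindle, kinetochore and cytokinesis only *Wee1*, the gene of a kinase that holds CDK1 inactive, fell (−0.36, SE 0.0863, adjusted p = 0.0078). Of 14 genes of further E2F factors, their partners and other transcription regulators of the cycle, *E2f6* and *Rbbp4* fell (−0.27 and −0.24, adjusted p = 0.0214 and 0.0223). None of these 6 genes passed over 8 pools. Without vehicle replicate 4 the 5 lists held 28 genes that fell and not 9, where 11.2% of all tested genes fell in both comparisons.

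**Figure D4:**
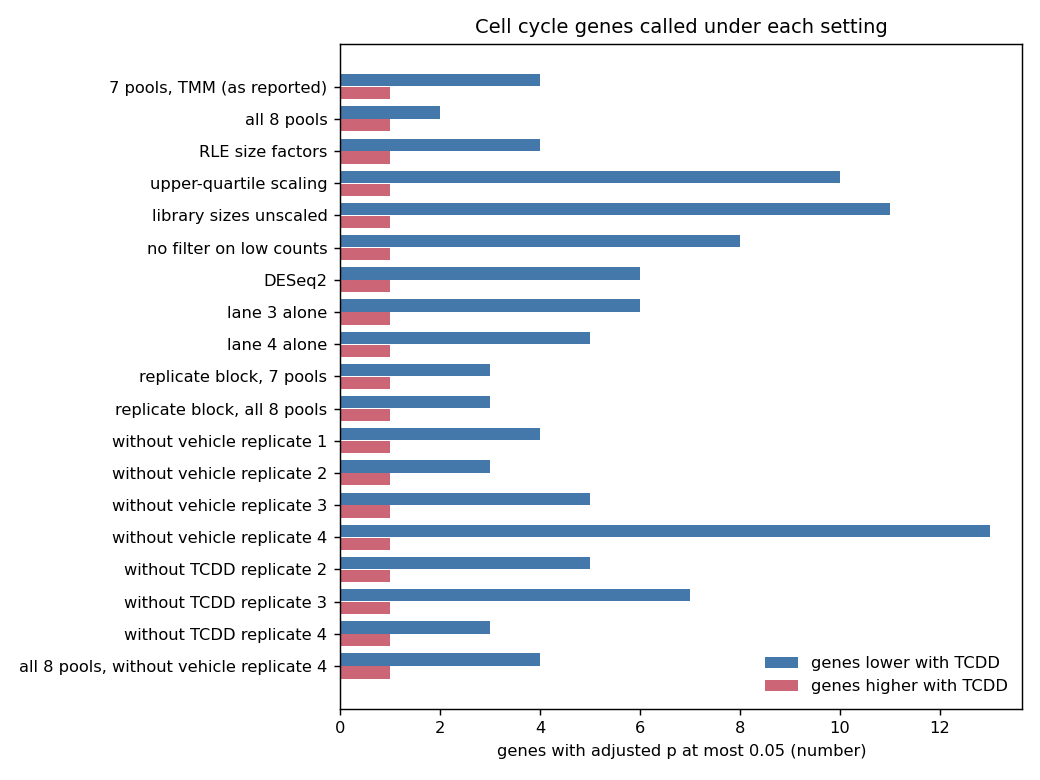
Number of the cell cycle genes (x axis, starting at 0) with an adjusted p of at most 0.05, lower (blue) and higher (red) with TCDD, under the reported comparison and each alternative (y axis). The number of higher genes was 1 throughout, and the number of lower genes ran from 2 over all 8 pools to 13 without vehicle replicate 4.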

How the data were processed

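Per the labels and the methods of the study, the authors checked read quality (FastQC 0.11.9), removed adapters, and aligned read pairs with HISAT2 2.1.0 to GRCm38.p6, using an index that is said to come from Bowtie2 2.4.1. SAMtools 1.10 sorted the alignments. The deposited counts are raw read pairs per gene, made by the authors with HTSeq 0.12.4 over exons in reverse-stranded mode, so that pairs shared by several places or genes are missing. Lines that name no gene (17.4% to 20.1% of a column) were left out. The authors' own comparison tables, which hold log2 fold changes, p-values, FDR and F statistics, were not used.

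Lanes were averaged, genes filtered with filterByExpr (minimum count 10, total 15), libraries scaled by TMM, and groups compared with edgeR 4.0.16 in R 4.3.3 (robust quasi-likelihood F-test, legacy method, and TREAT at 1.5-fold), with Benjamini-Hochberg adjustment over every tested gene. CPM use the TMM-scaled library sizes, and SEs and 95% intervals come from the same fit. Of the tests, only the quasi-likelihood test was tried on simulated data. All 44 genes were named by a rule, as were up to 4 genes per direction of each other list with the smallest adjusted p, 4 AHR targets and markers of other cells. The genes and lists were chosen with earlier results of these data known. P-values measure only the spread between pools. Promoter sequences are from RefSeq (GRCm38.p6), gene positions from GENCODE M21 (GRCm38), 1-based. The alternatives were DESeq2 1.42.0, other scalings, no filter, single lanes, a replicate block, all 8 pools and pools left out.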

Additional observations from a re-analysis of the deposited data

Results flagged for a closer look

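The 4 pools of each group were screened for a pool far from the other 3, in 88 groups over the 44 genes, and 7 stood apart, where chance flags about 1 in 20 groups, or 4.4 of 88. Vehicle replicate 4 was the low pool in 4 of them: *Mki67* at 303 CPM (the other vehicle pools at 376 to 383), *Top2a* at 266 CPM (325 to 334), *Rbl1* at 54.5 CPM (64.7 to 66.1) and *E2f2* at 8.67 CPM (10.5 to 10.8). *Cdk6* was at 79.9 CPM in TCDD replicate 4, above the other TCDD pools at 66.2 to 67.8 CPM. *Cdkn2c* was at 4.88 CPM in vehicle replicate 1, below the other vehicle pools at 5.88 to 6.07 CPM. *Cdkn2a* was at 0 CPM in TCDD replicate 4, where the other TCDD pools had 1 count each.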

How the results depend on the processing

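*Ccnd2* and *Cdkn1b* passed in each of the 18 alternatives, *Ccnd1* in 16, *Ccnd3* in 15 and *Mcm6* in 12. *Ccnd3* was lost over all 8 pools, with a replicate block over 8 pools (adjusted p = 0.0847) and over 8 pools without vehicle replicate 4 (0.201). The 18 alternatives gave 774 values for the 43 genes, of which 676 kept direction and side of the threshold, 46 (14 genes) turned sign with no call in either comparison, 11 lost a call (3 genes), 41 gained one (11 genes) and 0 turned a called direction. The number of cell cycle genes that fell, 4, was 2 over 8 pools, 10 with upper-quartile scaling, 11 with unscaled libraries, 8 without the filter on low counts, and 3 to 13 when 1 pool was left out. The share of all tested genes that fell, 11.2%, was 6.00%, 13.3%, 13.9% and 6.56% under the first 4 of these. It was 4.36% to 11.3% when 1 pool was left out. Without the filter 27651 genes were tested and 1815 fell, against 14233 and 1588 in the reported comparison. In the 5 other lists, the number that fell, 9, was 1 over 8 pools, 17 with upper-quartile scaling and 18 with unscaled libraries. It was 3 to 28 when 1 pool was left out. The 3 came from the 8 pools without vehicle replicate 4, where the full 8 gave 1. The number that rose, 2, was 4 without the filter, 4 with DESeq2 and up to 4 when 1 pool was left out. Of all tested genes 11.9% rose in the reported comparison, 6.68% without the filter and 10.2% with DESeq2, which tested 17455 genes. With 1 pool left out 5.98% to 11.6% rose. The fit over 8 pools without vehicle replicate 4 was added after seeing the data. The cause of these shifts was not tested. Where 1 pool was left out of 8 or 7, the spread was pooled over the rest.

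The labels give both groups replicate numbers. Same-numbered pools did not deviate together (correlations of −0.158, −0.0783 and −0.0545), where pools of different numbers ran from −0.139 to 0.295. So few pairs cannot decide whether the numbers pair the pools. With the replicate block, 3 of the cell cycle genes fell and 1 rose over 7 pools (*Mcm6* was lost, adjusted p = 0.0736), and 3 fell and 1 rose over 8. With the block 2 genes of the other lists fell over 7 pools and 2 over 8, where 8.47% and 6.97% of all tested genes fell.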
